A study of Mus musculus with 26 samples.

Results

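The antioxidant genes examined here were *Nfe2l2*, which encodes the transcription factor NRF2, 7 of its classic targets (*Nqo1*, *Hmox1*, *Gclc*, *Gclm*, *Txnrd1*, *Srxn1* and *Gpx2*), the mitochondrial superoxide dismutase gene *Sod2* and the inducible nitric oxide synthase gene *Nos2*. These 10 genes were taken by symbol from the 56738 gene symbols of the deposited counts, and all 10 were among the 16893 genes that passed the filter on expression, namely a normalized count that averaged over 10 in the 26 libraries. Transcripts were profiled by bulk RNA sequencing in primary keratinocytes, which form the epithelium of the skin, of 5 wild-type (WT) and 8 *Pla2g4d*-deficient (KO) mice. The 13 mice were 2 days old and of the C57BL/6NJ background, and the KO line carries a CRISPR-generated deletion around exon 3 of *Pla2g4d*, the gene of a phospholipase A2, in all cells of the animal. The keratinocytes of each mouse were grown for 4 days in medium with 0.06 mM CaCl2 and then either left untreated (basal) or exposed for 24 h to 20 ng/ml IL17A plus 20 ng/ml TNFα, cytokines that drive inflammation in psoriatic skin. This gave 4 groups and 26 libraries: WT basal (n = 5), WT with IL17A/TNFα (n = 5), KO basal (n = 8) and KO with IL17A/TNFα (n = 8). A single KO line was studied, and the origin of the WT mice was not given in the sources used here.

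NRF2 is held at a low level by KEAP1, an adaptor that marks it for degradation, until oxidants or electrophiles modify KEAP1. NRF2 then pairs with a small MAF protein on antioxidant response elements and raises genes of glutathione synthesis, thioredoxin reduction, quinone reduction and heme breakdown, while BACH1 occupies some of the same elements as a repressor. Since NRF2 is controlled mainly through its degradation, the mRNA of *Nfe2l2* does not measure NRF2 activity. *Sod2* and *Nos2* are known foremost as genes raised by NF-κB in inflamed tissue.

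To show which members carry letters of these elements near their start, the promoters of GRCm39 were searched from 250 bases before to 50 bases after the start of the canonical GENCODE transcript of each gene, on both strands. This start is the first base of the gene for all members except *Txnrd1*, *Sod2* and *Srxn1*. In these genes it lies inside the gene (82695013 in *Txnrd1*, 13226582 in *Sod2* and 151947444 in *Srxn1*). The core of the antioxidant response element, TGACNNNGC, was found in *Gclm*, *Txnrd1* and *Srxn1*, and a form of the NF-κB site was found in *Nos2*. The NF-κB form searched was GGGA, any base, T, any base and TCC. Of 21751 promoters of this length, 12.5% held the first motif and 1.32% the second, and these motifs do not overlap in the members. The sites are given on the strand that reads as the motif, with the motif in capitals and 10 bases on either side.
*Gclm* (minus strand, chr3:122039072-122039080): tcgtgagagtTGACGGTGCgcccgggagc
*Txnrd1* (minus strand, chr10:82694948-82694956): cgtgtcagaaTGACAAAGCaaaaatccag
*Srxn1* (minus strand, chr2:151947472-151947480): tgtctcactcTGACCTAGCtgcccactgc
*Nos2* (plus strand, chr11:78811567-78811576): cacccaactgGGGACTCTCCctttgggaac
Counted from this transcript start, the site of *Gclm* began 54 bases before it, that of *Txnrd1* 65 bases before, that of *Nos2* 46 bases before, and that of *Srxn1* at base 29 of exon 1. Because *Nos2* had the largest fold change of the members, the 250 bases before its start are given on the plus strand (chr11:78811363-78811612), with the same NF-κB form in capitals.
*Nos2* upstream: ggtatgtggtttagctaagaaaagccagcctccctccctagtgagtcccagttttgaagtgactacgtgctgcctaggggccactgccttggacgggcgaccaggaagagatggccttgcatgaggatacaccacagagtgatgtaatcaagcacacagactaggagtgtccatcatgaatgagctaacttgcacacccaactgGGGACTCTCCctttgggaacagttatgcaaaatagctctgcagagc
The other 6 members held neither motif in this window. Other forms of these elements and sites outside the window were not searched.

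The libraries held between 42072745 and 78102858 counts, so that counting error was small for every member except *Nos2*. In WT basal cells *Pla2g4d* itself reached 3.35 ± 1.36 CPM (counts scaled to library size, SD, n = 5). In KO basal cells it reached 2.06 ± 0.716 CPM (n = 8) and was called lower (log2 -0.70, adjusted p = 0.0935, edgeR). Between treated genotypes its log2 difference of -0.45 did not pass (adjusted p = 0.345, edgeR). Counts are given per gene and cover the exons that remain, so they do not show the deletion. In the GENCODE release used here *Txnrd1* overlaps *Eid3*, *Gclm* the pseudogene *Gm6061* and *Nfe2l2* the small nuclear RNA gene *Gm56200* on the same strand. On the opposite strand *Gpx2* overlaps *Fntb*, and *Nfe2l2*, *Gclc*, *Gclm*, *Txnrd1*, *Srxn1*, *Sod2* and *Nos2* overlap long noncoding RNA genes. The libraries were stranded, but whether counting used the strand was not given in the sources used here. The counts of these members could therefore hold reads of their neighbours. All 9 keratinocyte markers passed the filter. Their summed level was 46710 to 53145 CPM in basal and 36820 to 38530 CPM in treated libraries, and *Krt1* and *Krt10*, keratins of differentiating cells, fell with IL17A/TNFα (log2 -4.34 and -5.00 in WT, -5.01 and -5.64 in KO cells). The 8 melanocyte markers summed to 453 to 641 CPM in WT basal, 351 to 502 CPM in WT treated, 493 to 659 CPM in KO basal and 326 to 429 CPM in KO treated libraries. Of these, *Mitf* and *Tyr* were called lower with IL17A/TNFα in both genotypes, and *Dct* and *Pmel* in KO cells. The 8 fibroblast markers summed to 3.35 to 9.44 CPM in basal and 2.60 to 7.46 CPM in treated libraries, with *Col1a2* called lower in both genotypes, and the 6 endothelial markers to 2.44 to 5.62 CPM and 4.06 to 6.86 CPM, with *Pecam1* and *Kdr* called higher and *Vwf* lower in both. Those of dendritic and T cells were 52.1 to 98.3 CPM in basal and 150 to 240 CPM in treated libraries, of which *Epcam*, which keratinocytes can also express, rose (log2 1.67 in WT cells), whereas *Cd207* and *Cd3g* were at 0 in every group. In these bulk samples, a change in the share of a cell type and a change of RNA per cell cannot be told apart.

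Under basal conditions the members differed widely in level. Per kilobase of transcript, *Hmox1*, which encodes the heme-degrading enzyme heme oxygenase 1, was highest in WT basal cells (148 ± 33.2 CPM per kb, SD, n = 5), followed by *Nfe2l2* (45.4 ± 3.15), *Gclc* (32.8 ± 2.11), *Txnrd1* (19.9 ± 2.12) and *Sod2* (11.01 ± 0.405). *Gclm* (6.52 ± 0.244) and *Srxn1* (6.18 ± 0.495) came next and did not differ beyond their spread, and neither did *Nqo1* (3.82 ± 1.34) and *Gpx2* (3.15 ± 1.38 CPM per kb). *Nos2* was near the detection limit (0.0166 ± 0.0157 CPM per kb). Lower levels went with a larger relative spread between mice for *Nqo1*, *Gpx2* and *Nos2*, and *Hmox1* varied widely despite its high level.

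**Figure D1:**
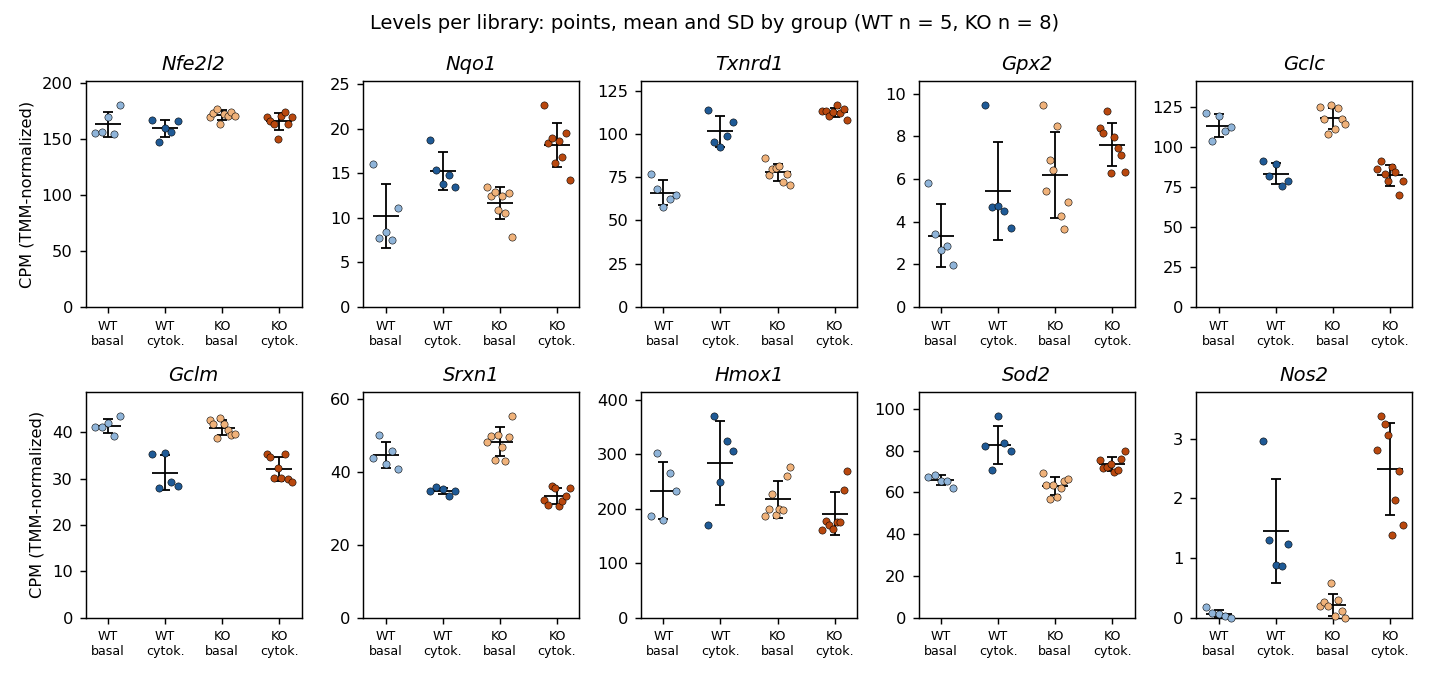
Level of each of the 10 members in CPM (vertical axes, linear and from 0, a scale of its own per gene) in the 4 groups, with 1 point per library and the mean ± SD. The treated libraries of *Txnrd1*, *Sod2* and *Nos2* lie above, and those of *Gclc*, *Gclm* and *Srxn1* below, all basal libraries of their genotype.

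IL17A/TNFα moved the members in opposite directions. In WT cells 5 of the 10 members rose and 3 fell at an adjusted p under 0.1 (edgeR, quasi-likelihood, Benjamini-Hochberg adjustment over all genes). Among all genes tested 18.8% rose and 18% fell by this rule. In KO cells 4 members rose and 3 fell, beside 17.7% and 18.1% of all genes. With the added threshold of a 1.5-fold change, at which genes are named as called below, 3 members were called higher and 0 lower in WT cells (*Txnrd1*, *Gpx2* and *Nos2*), where 8.65% of all genes were called higher, 5.26% lower and 13.9% in either direction. In KO cells 2 members were called higher and 0 lower (*Nqo1* and *Nos2*), beside 6.33% of genes higher, 4.55% lower and 10.9% in either direction. Across the 10 members the median log2 fold change was 0.31 in WT and 0.09 in KO cells, and over all genes tested it was 0.01 and 0.00. The basal and treated libraries did not overlap for 6 of 10 members in WT cells, where 20.5% of all genes had no overlap. In KO cells this held for 7 of 10 members, beside 11.8% of all genes.

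*Nfe2l2* (chromosome 2 of GRCm39, 75504739 to 75534985, 5 exons) showed no change that passed the test. Its level in the WT libraries, replicates 1 to 5, was 155, 156, 169, 154 and 180 CPM under basal conditions and 167, 147, 159, 156 and 166 CPM with IL17A/TNFα. In KO cells it ranged from 163 to 176 CPM (median 171) in basal and from 150 to 174 CPM (median 168) in treated libraries. Basal and treated libraries overlapped in both genotypes. The log2 fold change was -0.03 in WT cells (standard error, SE, 0.05, adjusted p = 0.628) and -0.05 in KO cells (SE 0.04, adjusted p = 0.349, edgeR), with a 95% interval of -0.13 to 0.06 in WT and -0.12 to 0.03 in KO cells.

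Both genes of glutathione synthesis among the members fell. *Gclc* (chromosome 9 of GRCm39, 77661797 to 77701770, 16 exons) encodes the catalytic and *Gclm* (chromosome 3, 122039126 to 122065061, 7 exons) the modifier subunit of glutamate-cysteine ligase, the rate-limiting enzyme of glutathione synthesis. In WT cells *Gclc* measured 121, 103, 119, 110 and 112 CPM under basal conditions and 91.1, 81.7, 89.5, 75.5 and 78.9 CPM with IL17A/TNFα. In KO cells it ranged from 108 to 126 CPM (median 117) in basal and from 70.0 to 91.1 CPM (median 83.7) in treated libraries. Every treated library was below every basal library of its genotype. *Gclc* fell by 0.44 on the log2 scale in WT (SE 0.06, adjusted p = 1.85e-06) and by 0.52 in KO cells (SE 0.05, adjusted p = 1.41e-09, edgeR). *Gclm* measured 41.2, 41.1, 41.9, 39.3 and 43.5 CPM in WT basal libraries and 35.3, 27.9, 35.5, 29.3 and 28.5 CPM in treated ones. Its KO libraries ranged from 38.7 to 43.2 CPM (median 41.1) in basal and from 29.4 to 35.4 CPM (median 31.3) in treated cells. Here too the groups did not overlap, and *Gclm* fell by 0.40 in WT (SE 0.07, adjusted p = 3.08e-05) and by 0.35 in KO cells (SE 0.05, adjusted p = 7.67e-06) on the log2 scale. The falls of both subunits stayed under the 1.5-fold threshold.

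The thioredoxin genes went opposite ways. *Txnrd1* (chromosome 10, 82669785 to 82733546, 14 exons) encodes cytosolic thioredoxin reductase, which restores thioredoxin with NADPH, and *Srxn1* (chromosome 2, 151947436 to 151957687, 2 exons) encodes sulfiredoxin, which repairs overoxidized peroxiredoxins. *Txnrd1* in WT cells measured 76.8, 68.4, 58.0, 62.5 and 64.7 CPM in basal and 114, 95.1, 92.7, 98.7 and 107 CPM in treated libraries. The KO libraries ranged from 70.3 to 86.0 CPM (median 78.2) under basal conditions and from 108 to 117 CPM (median 113) with IL17A/TNFα. All treated libraries were above all basal ones. *Txnrd1* rose 1.54-fold in WT (log2 0.62, SE 0.06, adjusted p = 4.39e-09) and 1.45-fold in KO cells (log2 0.53, SE 0.05, adjusted p = 6.87e-10). *Srxn1* in WT cells measured 43.9, 50.1, 42.2, 45.7 and 40.9 CPM in basal and 34.7, 35.8, 35.3, 33.3 and 34.6 CPM in treated libraries. In KO cells it ranged from 43.0 to 55.3 CPM (median 48.9) in basal and from 30.8 to 36.1 CPM (median 32.9) in treated libraries. It lay below every basal library in all 13 treated ones, and fell by 0.36 in WT (SE 0.07, adjusted p = 7.00e-05) and by 0.53 in KO cells (SE 0.05, adjusted p = 1.91e-09) on the log2 scale. *Gclm*, *Txnrd1* and *Srxn1*, the members with a TGACNNNGC site in the window above, thus included a gene that rose and genes that fell.

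*Nqo1* (chromosome 8, 108113835 to 108129934, 6 exons), which encodes a quinone reductase, rose in both genotypes from a low level. In WT cells it measured 16.1, 7.79, 8.40, 7.55 and 11.2 CPM in basal and 18.8, 15.4, 13.8, 14.8 and 13.5 CPM in treated libraries. The basal library of WT replicate 1 stood above 4 of the 5 treated WT libraries. In KO cells *Nqo1* ranged from 7.90 to 13.4 CPM (median 12.5) in basal and from 14.3 to 22.6 CPM (median 18.5) in treated libraries, with no overlap. The rise was 1.499-fold in WT (log2 0.58, SE 0.17, adjusted p = 0.00721), just under the threshold, and 1.56-fold in KO cells (log2 0.64, SE 0.13, adjusted p = 0.0003). With the mouse as a replicate block, which compares the paired libraries of each mouse, the WT log2 fold change was 0.63 (adjusted p = 5.72e-05) and passed the threshold.

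*Gpx2* (chromosome 12, 76839107 to 76842326, 2 exons) encodes a glutathione peroxidase of epithelia. It measured 5.80, 3.44, 2.67, 2.86 and 1.99 CPM in WT basal and 9.46, 4.68, 4.74, 4.51 and 3.72 CPM in WT treated libraries. WT replicate 1 was highest in both sets, and basal and treated libraries overlapped. The KO libraries ranged from 3.67 to 9.46 CPM (median 5.92) in basal and from 6.28 to 9.19 CPM (median 7.71) in treated cells. *Gpx2* rose 1.62-fold in WT cells (log2 0.69, SE 0.26, adjusted p = 0.0446). The WT call was lost without WT replicate 3 (adjusted p = 0.106) and when only the groups compared were fitted (adjusted p = 0.117). With the mouse as a block the WT log2 fold change was 0.70 (SE 0.16, adjusted p = 0.00146). In KO cells the log2 fold change was 0.29 (SE 0.20, adjusted p = 0.315), and with the mouse as a block it was 0.35 (SE 0.12, adjusted p = 0.0336).

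*Hmox1* (chromosome 8, 75820241 to 75827217, 5 exons) did not pass the unpaired test for a cytokine effect in either genotype, but passed in both with the mouse as a block. In WT cells it measured 186, 302, 178, 265 and 233 CPM in basal and 171, 370, 248, 324 and 305 CPM in treated libraries. In KO cells it ranged from 186 to 276 CPM (median 200) in basal and from 160 to 270 CPM (median 176) in treated libraries. WT replicate 2 was the highest WT library and KO replicate 8 the highest KO library in both conditions, and basal and treated libraries overlapped. Its log2 change was 0.28 in WT (SE 0.17, adjusted p = 0.228) and -0.19 in KO cells (SE 0.14, adjusted p = 0.345). Within mice, *Hmox1* was higher with IL17A/TNFα in 4 of 5 WT mice, WT replicate 1 being the exception, and lower in 8 of 8 KO mice. With the mouse as a block it rose by 0.27 in WT (SE 0.06, adjusted p = 0.00205) and fell by 0.19 in KO cells (SE 0.05, adjusted p = 0.00386) on the log2 scale.

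*Sod2* (chromosome 17, 13224095 to 13259591, 5 exons), which encodes the manganese superoxide dismutase of mitochondria, rose in both genotypes. In WT cells it measured 67.6, 68.5, 65.4, 65.7 and 62.3 CPM in basal and 82.2, 71.0, 96.7, 83.5 and 80.0 CPM in treated libraries. In KO cells it ranged from 56.8 to 69.4 CPM (median 63.6) in basal and from 70.0 to 79.9 CPM (median 72.9) in treated libraries. The groups did not overlap in either genotype. *Sod2* rose 1.25-fold in WT (log2 0.33, SE 0.06, adjusted p = 0.00011) and 1.17-fold in KO cells (log2 0.22, SE 0.05, adjusted p = 0.00069).

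*Nos2* (chromosome 11, 78811613 to 78851080, 27 exons), which encodes the enzyme that makes nitric oxide from arginine in inflamed tissue, had the largest fold change and the lowest level of the members. The WT basal libraries held 10, 4, 4, 2 and 0 counts (0.174, 0.079, 0.064, 0.031 and 0 CPM), and the WT treated libraries held 210, 92, 44, 40 and 68 counts (2.97, 1.297, 0.876, 0.867 and 1.23 CPM). For counting error only, a count of 0 allows up to 3 counts, or 0.0709 CPM, and since most read pairs appear to have been counted as 2 reads, the limit of this library lies above that value. In KO cells *Nos2* ranged from 0 to 0.574 CPM (median 0.197) in basal and from 1.38 to 3.38 CPM (median 2.63) in treated libraries. All treated libraries were above all basal ones. *Nos2* rose 19.7-fold in WT (log2 4.30, SE 0.66, adjusted p = 5.86e-06) and 11.5-fold in KO cells (log2 3.52, SE 0.47, adjusted p = 5.39e-07). Its mean normalized count was 3.79 in WT basal and 11.5 in KO basal cells, so it passed the filter of 10 mainly through the treated libraries, where it was high. Macrophages also express this gene. The 9 macrophage and neutrophil markers summed to 20.8 to 34.0 CPM in WT basal, 31.6 to 52.9 CPM in WT treated, 21.0 to 41.6 CPM in KO basal and 27.3 to 56.8 CPM in KO treated libraries. Of these 9 markers, 5 passed the filter and only *Cd68* rose (log2 0.75 in WT, adjusted p = 0.000538, and 0.48 in KO cells, adjusted p = 0.00414), whereas the leukocyte gene *Ptprc* had group means of 0.0157 to 0.0559 CPM, *Ly6g* and *Mpo* had a mean of 0 in 3 groups each. The part of such cells in the rise of *Nos2* was not tested.

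**Figure D2:**
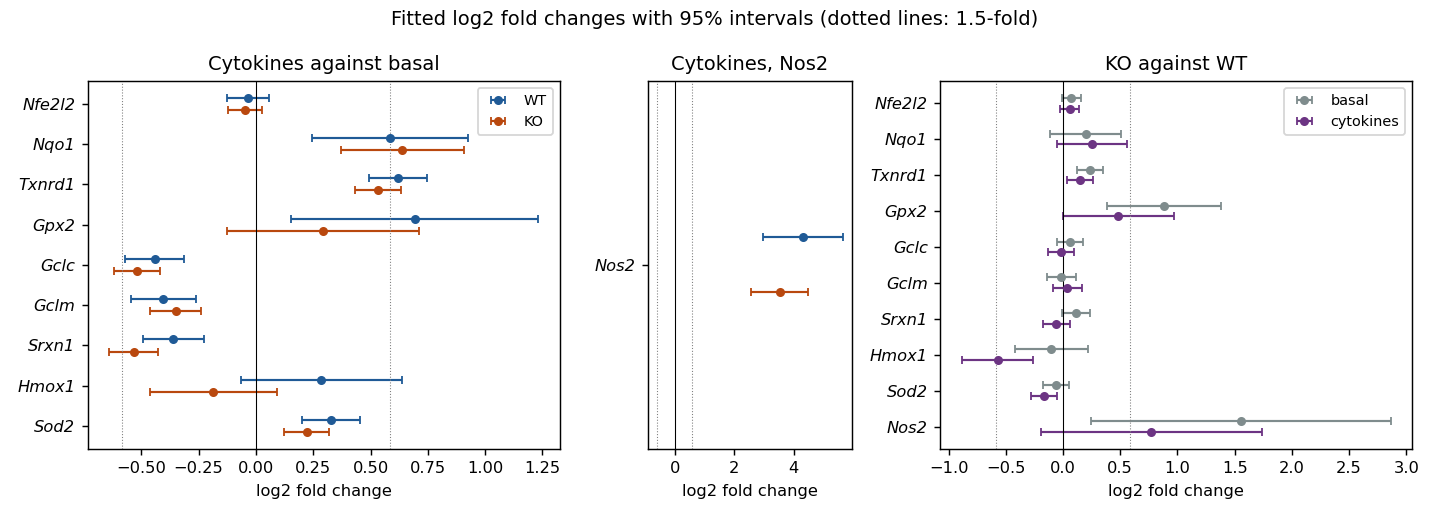
Log2 fold change with 95% confidence interval (horizontal axis) of the 10 members for the cytokine effect in WT and KO cells and the genotype effect under basal conditions and with IL17A/TNFα, from edgeR's quasi-likelihood fit, with dotted lines at 1.5-fold. *Nos2* has a panel of its own for the cytokine effect and lies far right of 0, *Gclc*, *Gclm* and *Srxn1* lie left of 0 in both genotypes, and the interval of *Hmox1* for the genotype effect with cytokines lies left of 0.

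The direction within mice was uniform for most members. *Nqo1*, *Txnrd1*, *Sod2* and *Nos2* were higher with IL17A/TNFα in 13 of 13 mice, and *Gclc*, *Gclm* and *Srxn1* were lower in 13 of 13 mice. *Gpx2* was higher in 5 of 5 WT but 5 of 8 KO mice, and *Nfe2l2* was higher in 2 of 5 WT and 1 of 8 KO mice. The change of *Nqo1* within WT mice ran from 0.23 to 0.98 on the log2 scale, the lowest value being that of WT replicate 1, and within KO mice from 0.55 to 0.85. That of *Txnrd1* was narrower, from 0.47 to 0.73 in WT and from 0.40 to 0.63 in KO mice.

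Between genotypes under basal conditions, 1 member was called. *Gpx2* was called higher in KO cells and 0 members were called lower, beside 1.61% of all genes called higher and 1.07% lower. At an adjusted p under 0.1 at any fold, 2 members were higher (*Gpx2* and *Txnrd1*) and 0 lower, beside 7.57% of all genes higher and 6.06% lower. *Gpx2* measured 3.35 ± 1.46 CPM in WT cells (SD, n = 5), against 6.19 ± 2.03 CPM in KO cells (SD, n = 8), a 1.85-fold difference (log2 0.88, SE 0.24, adjusted p = 0.0183, edgeR). Of the KO libraries, 4 of 8 were above every WT library, and the highest WT value, 5.80 CPM, was that of WT replicate 1. *Txnrd1* measured 66.1 ± 7.06 CPM in WT cells against 77.8 ± 5.07 CPM in KO cells, a 1.18-fold difference (log2 0.24, SE 0.06, adjusted p = 0.00672), with 5 of 8 KO libraries above every WT library. No member was free of overlap between the genotypes, beside 3.03% of all genes. *Nos2* measured 0.0697 ± 0.0656 CPM in WT cells against 0.211 ± 0.181 CPM in KO cells, and its log2 difference of 1.55 did not pass the test (SE 0.64, adjusted p = 0.134). Among the cell type markers, *Krt1* (log2 -0.75, adjusted p = 0.00776) and the dendritic cell marker *H2-Ab1* (log2 -1.75, adjusted p = 0.0600) were called lower and *Pecam1* (log2 0.95, adjusted p = 0.0195) higher in KO basal cells. The part of these shifts in the differences of *Gpx2* and *Txnrd1* was not tested.

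WT replicate 1 weighed on these differences. Without it the basal difference of *Gpx2* was 1.17 on the log2 scale (SE 0.20, adjusted p = 0.000261), *Nqo1* was higher in KO cells by 0.42 (SE 0.13, adjusted p = 0.0274), and *Nos2* was higher by 2.18 (SE 0.70, adjusted p = 0.0356). With all mice the difference of *Nqo1* was 0.20 (SE 0.15, adjusted p = 0.485), and it passed in only 1 of 21 settings. *Nos2* also passed without KO replicate 8 (adjusted p = 0.0483), without KO replicate 5 (adjusted p = 0.0953) and with DESeq2 (adjusted p = 0.0418). In 17 of 21 settings it did not pass (adjusted p up to 0.356). WT replicate 1 also had the lowest *Pla2g4d* level of the WT mice, at 1.22 CPM in basal and 28.6 CPM in treated cells. The other WT libraries held 3.14 to 4.63 CPM in basal and 47.1 to 65.2 CPM in treated cells. The KO libraries held 1.15 to 2.98 CPM in basal and 29.2 to 59.2 CPM in treated cells. The cause of the low level in WT replicate 1 was not tested.

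With IL17A/TNFα present, *Hmox1* was the only member that differed between genotypes at an adjusted p under 0.1, and 0 members were called at 1.5-fold. Of all genes 1.22% were higher and 1.62% lower in KO cells by the first rule, and 0.148% were called higher and 0.556% lower. *Hmox1* measured 283 ± 76.6 CPM in WT cells (SD, n = 5), against 191 ± 39.6 CPM in KO cells (SD, n = 8), and the log2 difference was -0.57 (SE 0.15, adjusted p = 0.0634, edgeR). The genotypes overlapped for all 10 members, beside 1.08% of all genes without overlap, and for *Hmox1* 3 of 8 KO libraries were below every WT library, the lowest WT value being the 171 CPM of WT replicate 1. The log2 difference of *Hmox1* ran from -0.70 to -0.46 with single mice left out, but its adjusted p exceeded 0.1 when most of them were left out. Without WT replicates 2, 3, 4 or 5 or KO replicates 1, 2, 3, 4, 5 or 6 the adjusted p lay between 0.102 and 0.194, and without WT replicate 1 it was 0.00271. *Krt1* (log2 -1.42, adjusted p = 0.000146) and *Krt10* (log2 -1.15, adjusted p = 0.0226) were also lower in treated KO than in treated WT cells. So were *Dct*, *Pmel*, *Tyr* and *Mlana* of the melanocyte markers, by less than 1.5-fold (log2 -0.47, -0.57, -0.43 and -0.38, adjusted p = 0.0168, 0.0168, 0.0259 and 0.0923). Their part in the difference of *Hmox1* was not tested. Without WT replicate 1, *Gpx2* (log2 0.79, adjusted p = 0.0122), *Txnrd1* (log2 0.20, adjusted p = 0.0116) and *Nqo1* (log2 0.35, adjusted p = 0.0921) were also higher in treated KO than in treated WT cells, whereas with all mice their adjusted p was 0.332, 0.185 and 0.439.

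The interaction test compares the cytokine effect between the genotypes. No member passed it in the unpaired fit (edgeR, 0 members at any fold), beside 0.983% of all genes at any fold and 0.219% called. An unadjusted p under 0.05 was found for *Hmox1* (interaction log2 -0.47, SE 0.22, unadjusted p = 0.0406, adjusted p = 0.515) and *Srxn1* (interaction log2 -0.17, SE 0.08, unadjusted p = 0.0468, adjusted p = 0.539). With the mouse as a block the interaction of *Hmox1* was -0.46 (SE 0.08, adjusted p = 0.00321), and no other member passed. The response of *Nos2* differed by -0.78 on the log2 scale, with a 95% interval of -2.37 to 0.81.

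**Figure D3:**
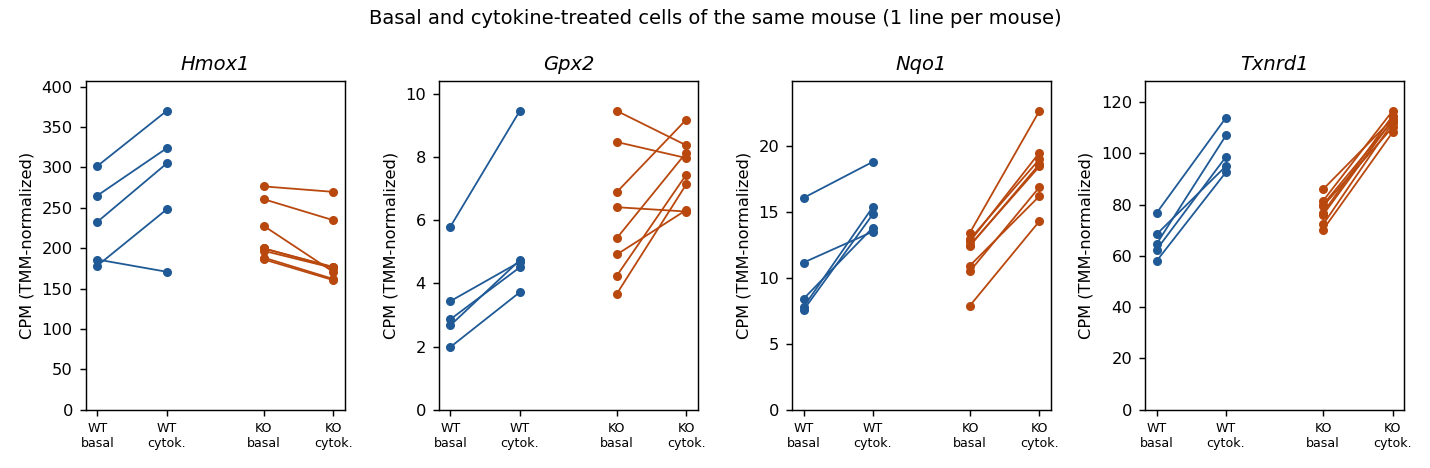
Level in CPM (vertical axes, linear and from 0) of *Hmox1*, *Gpx2*, *Nqo1* and *Txnrd1* in the basal and the treated library of each mouse, joined by a line, for 5 WT and 8 KO mice. *Hmox1* lines go down in all 8 KO mice and up in 4 of 5 WT mice, whereas *Nqo1* and *Txnrd1* lines go up in all 13 mice.

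Of 138 other genes of the same pathways, in 9 lists, 121 passed the filter. With IL17A/TNFα 20 were called higher and 12 lower in WT cells, and 21 higher and 7 lower in KO cells, which is 26.4% and 23.1% of the genes tested in these lists, beside 13.9% and 10.9% of all genes. Their median log2 fold change was 0.12 in WT and 0.04 in KO cells. Between genotypes 2 genes were called higher and 0 lower under basal conditions, and 3 higher and 1 lower with IL17A/TNFα, which is 1.65% and 3.31% of the genes tested in these lists. Of all genes, as above, 1.61% were called higher and 1.07% lower under basal conditions, and 0.148% higher and 0.556% lower with IL17A/TNFα. Some called genes with a mean normalized count under 100 are named here after their values were seen: *Gsta2* (lower in both genotypes) and *Gpx7* (higher in KO cells) of the glutathione list, *Aldh3a1* (lower in WT cells), *Aldh1a1* (higher in KO cells, and higher in treated KO than treated WT cells) and *Akr1c13* (higher in KO basal cells) of the detoxifying enzymes, *Trf* (higher in both genotypes) of heme and iron, *Cybb* (higher in WT cells) and *Nox4* (lower in WT cells) of the NADPH oxidases, and *Gchfr* and *Arg2* (higher in both) of nitric oxide and arginine handling. Several of these calls were lost when a single mouse was left out. The difference of *Aldh1a1* between treated genotypes did not pass without any 1 of WT replicates 2 to 5 or KO replicates 1 to 6 (adjusted p up to 0.184), and its rise in KO cells did not pass without KO replicate 4, 5 or 6 (adjusted p up to 0.165). *Akr1c13* did not pass without WT replicate 1, 3 or 5 (adjusted p up to 0.120), *Aldh3a1* without WT replicate 2, 3 or 5 (up to 0.184), *Cybb* without WT replicate 1, 4 or 5 (up to 0.247) and *Nox4* without WT replicate 1, 2, 4 or 5 (up to 0.244). In KO cells *Gpx7* did not pass without KO replicate 1 (adjusted p = 0.107) and *Gchfr* without KO replicate 2 or 3 (up to 0.152). With no filter on expression, all of these but *Gpx7* and the rise of *Aldh1a1* in KO cells also missed the threshold.

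Among 13 regulators of NRF2, 2 rose and 0 fell by the call in each genotype, which is 15.4% beside 13.9% of all genes in WT and 10.9% in KO cells. *Maff*, which encodes a small MAF partner, rose from 17.04 CPM to 37.3 CPM in WT (log2 1.13, adjusted p = 4.40e-07) and from 21.4 to 33.4 CPM in KO cells (log2 0.65, adjusted p = 5.12e-05). *Sqstm1*, which encodes the autophagy adaptor p62 that binds KEAP1, rose from 329 CPM to 614 CPM in WT (log2 0.90, adjusted p = 1.11e-11) and from 416 to 645 CPM in KO cells (log2 0.64, adjusted p = 9.52e-11). *Keap1* and *Bach1* are given for their role, chosen after their values were seen. *Bach1* fell by 0.48 in WT (adjusted p = 4.79e-07) and by 0.36 in KO cells (adjusted p = 9.25e-07) on the log2 scale, and *Keap1* had a log2 fold change of 0.14 in WT (adjusted p = 0.154) and 0.15 in KO cells (adjusted p = 0.0475).

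In the list of glutathione synthesis and use, 4 of 28 tested genes were called higher and 4 lower in WT cells, and 7 higher and 2 lower in KO cells. *Gsr*, which encodes the reductase that regenerates glutathione, rose from 13.2 CPM to 35.4 CPM in WT (log2 1.42, adjusted p = 4.58e-08) and from 18.9 to 39.2 CPM in KO cells (log2 1.05, adjusted p = 1.11e-07). The glutaredoxin gene *Glrx* rose from 140 to 316 CPM in WT cells (log2 1.17, adjusted p = 0.000286) and from 118 to 207 CPM in KO cells (log2 0.81, adjusted p = 0.00111), and the export pump gene *Abcc3* rose by 1.66 in WT (adjusted p = 0.000166) and 2.58 in KO cells (adjusted p = 5.06e-09) on the log2 scale. *Ggct*, which encodes an enzyme of glutathione breakdown, fell from 21.7 CPM to 9.46 CPM in WT (log2 -1.196, adjusted p = 2.19e-08) and from 17.6 to 7.63 CPM in KO cells (log2 -1.202, adjusted p = 1.99e-10), and *Mgst2* and *Abcc4* fell in WT cells by 0.91 (adjusted p = 1.64e-06) and 0.75 (adjusted p = 3.62e-06). *Slc7a11*, which encodes the cystine importer that feeds glutathione synthesis and was chosen after its values were seen, rose from 106 CPM to 186 CPM in WT cells, and 95.6 to 159 CPM in KO cells (log2 0.80, adjusted p = 1.61e-08, and 0.73, adjusted p = 9.55e-10).

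*Gpx3*, which encodes a secreted glutathione peroxidase, was the only gene of these lists called in the interaction test. It measured 4.76 ± 0.785 CPM in WT basal and 6.24 ± 1.32 CPM in WT treated cells (SD, n = 5), against 4.99 ± 0.485 CPM in KO basal and 12.7 ± 0.736 CPM in KO treated cells (SD, n = 8). All 8 treated KO libraries were above all 5 treated WT libraries. The interaction log2 was 0.96 (SE 0.16, adjusted p = 0.00251), and 0.97 with the mouse as a block (adjusted p = 0.00191). The rise in KO cells was 1.35 on the log2 scale (adjusted p = 5.94e-12).

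Of 16 thioredoxin and peroxiredoxin genes, 1 was called higher and 1 lower in WT cells and 1 lower in KO cells. *Txnip*, which encodes an inhibitor of thioredoxin, fell from 272 CPM to 142 CPM in WT (log2 -0.94, adjusted p = 1.83e-07) and from 207 to 136 CPM in KO cells (log2 -0.61, adjusted p = 4.40e-06), and the peroxiredoxin gene *Prdx4* rose from 7.49 to 13.04 CPM in WT cells (log2 0.80, adjusted p = 0.00176). Of 9 genes of NADPH supply, only *Idh2*, which encodes mitochondrial isocitrate dehydrogenase, was called, and it fell by 0.67 in WT (adjusted p = 2.30e-08) and 0.73 in KO cells (adjusted p = 3.27e-11) on the log2 scale. Among superoxide dismutases, catalase and metallothioneins, 1 of 6 genes was called in WT and 0 in KO cells. That gene was *Sod3*, chosen after its values were seen, which fell in WT cells from 0.954 to 0.148 CPM (log2 -2.71, adjusted p = 0.00142).

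Of 16 detoxifying enzymes, 2 were called higher and 3 lower in WT cells, and 2 higher and 2 lower in KO cells. *Akr1b8*, an aldo-keto reductase gene, rose from 10.7 CPM to 18.6 CPM in WT (log2 0.80, adjusted p = 5.83e-06) and from 13.1 to 24.2 CPM in KO cells (log2 0.88, adjusted p = 1.71e-08), and *Nqo2* rose in WT cells (log2 0.89, adjusted p = 0.0119). *Ptgr1*, which encodes an alkenal reductase, fell from 167 CPM to 79.9 CPM in WT (log2 -1.07, adjusted p = 3.85e-09) and from 144 to 66.1 CPM in KO cells (log2 -1.12, adjusted p = 1.04e-11), and the carbonyl reductase gene *Cbr3* fell by 0.94 (adjusted p = 2.76e-05) and 0.84 (adjusted p = 5.05e-06). *Osgin1*, an oxidative stress response gene, was higher in basal KO than basal WT cells, at 3.37 ± 0.487 CPM (SD, n = 8) against 1.58 ± 0.357 CPM (SD, n = 5), and none of the 8 KO libraries reached down to the 5 WT libraries (log2 1.09, SE 0.20, adjusted p = 0.000438). With IL17A/TNFα it measured 3.13 ± 0.502 against 1.87 ± 0.707 CPM (log2 0.75, adjusted p = 0.0547), a call lost without WT replicate 2 or 3 or KO replicate 3 or 6 (adjusted p up to 0.183).

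In heme and iron handling, the list nearest to *Hmox1*, 2 of 9 genes were called higher and 1 lower in WT cells, and 3 higher and 1 lower in KO cells. *Fth1*, which encodes the ferritin heavy chain that stores iron, rose from 381 CPM to 2432 CPM in WT (log2 2.67, adjusted p = 9.08e-18) and from 461 to 2302 CPM in KO cells (log2 2.32, adjusted p = 3.88e-19). *Slc40a1*, which encodes the iron exporter ferroportin, fell from 22.1 CPM to 6.37 CPM in WT (log2 -1.79, adjusted p = 1.12e-07) and from 16.5 to 3.88 CPM in KO cells (log2 -2.08, adjusted p = 8.93e-11). Treated KO cells were lower in *Slc40a1* than treated WT cells (log2 -0.71, adjusted p = 0.0642), which did not hold without WT replicate 2, 3 or 4 or KO replicate 2, 3, 5 or 6 (adjusted p up to 0.212). The transferrin receptor gene *Tfrc* rose in KO cells (log2 0.73, adjusted p = 4.16e-10).

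Among the NADPH oxidase genes, *Cyba*, which encodes the p22phox subunit, rose from 2.01 CPM to 10.2 CPM in WT (log2 2.34, adjusted p = 9.79e-10) and from 2.76 to 10.9 CPM in KO cells (log2 1.99, adjusted p = 1.298e-10), and the oxidase organizer gene *Noxo1* rose by 2.34 (adjusted p = 4.59e-08) and 2.11 (adjusted p = 2.93e-09). Of 14 genes of nitric oxide and arginine handling, 5 were called higher and 0 lower in WT cells, and 4 higher and 0 lower in KO cells. *Gch1*, which encodes the first enzyme in the synthesis of the nitric oxide synthase cofactor tetrahydrobiopterin, rose from 8.19 CPM to 27.2 CPM in WT (log2 1.73, adjusted p = 6.24e-11) and from 9.76 to 22.5 CPM in KO cells (log2 1.205, adjusted p = 5.29e-10). *Ddah1*, which encodes an enzyme that clears inhibitors of nitric oxide synthase, rose by 1.32 (adjusted p = 4.66e-05) and 1.24 (adjusted p = 3.16e-06), and the arginase gene *Arg1* rose in WT cells (log2 0.95, adjusted p = 0.00187).

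**Figure D4:**
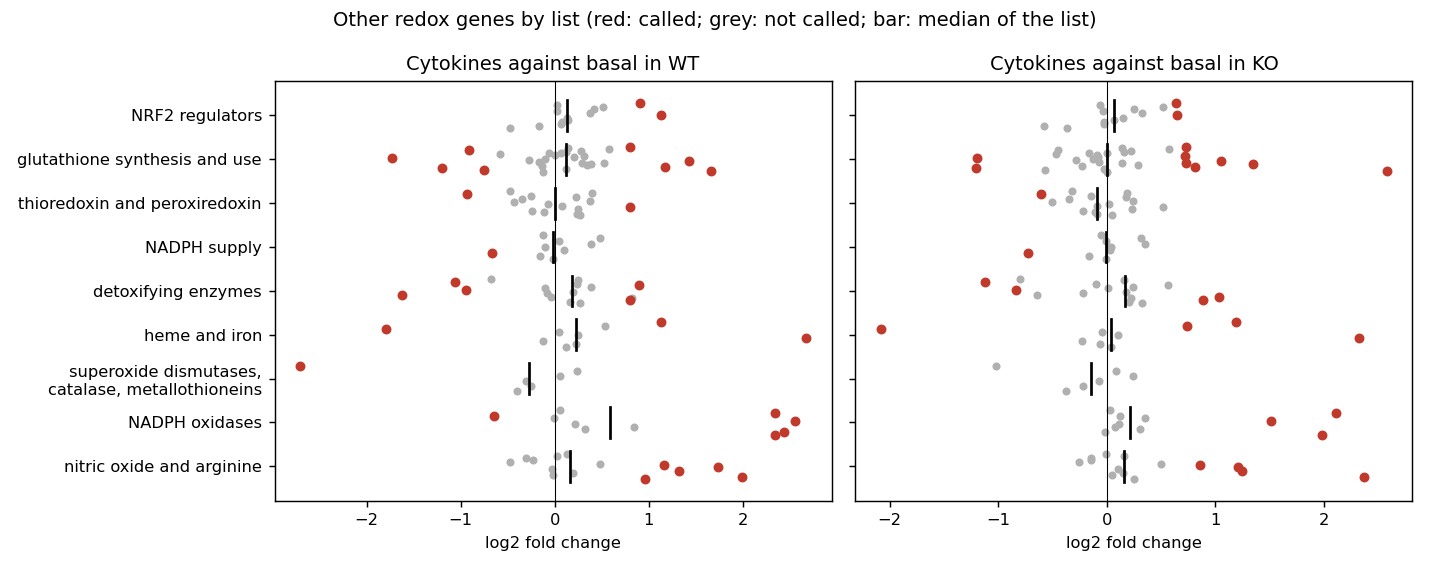
Log2 fold change with IL17A/TNFα of the 121 tested pathway genes by list, in WT and in KO cells, with called genes marked and the median of each list drawn as a line. NADPH oxidase and nitric oxide genes reach the right side in both genotypes, and *Fth1* is the farthest right of the heme and iron genes.

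The genes whose pattern over the 26 libraries was closest to that of *Nos2*, by the root mean square difference in log2 CPM after centring each gene on its own mean, were *C3* (0.787), *Pglyrp1* (1.03) and *Kcnn4* (1.04). Their log2 fold changes with IL17A/TNFα were 3.46, 3.85 and 2.57 in WT and 2.92, 3.97 and 2.38 in KO cells. No other member changed by more than 1 on the log2 scale, so no likeness was computed for them.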

How the data were processed

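Bulk RNA sequencing of primary mouse keratinocytes gave 26 libraries, from stranded TruSeq libraries read in pairs. Reads were aligned by the authors with STAR 2.7.10b to mm39 and assigned to genes of GENCODE with featureCounts 2.0.6, and the authors deposited these raw counts. The authors also deposited log2 values, computed from counts scaled by a size factor per library with 1 added, which were used only in an alternative. Of counts between 1 and 20, 83.2% were even, so most read pairs appear to have been counted as 2 reads and the counting error is larger than the counts alone imply. Values of *Nos2* were even in 23 of 26 libraries.

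Genes with a mean normalized count over 10 (DESeq2 size factors) entered the test in edgeR 4.0.16 (R 4.3.3), with TMM normalization and a quasi-likelihood fit of 4 groups without covariates, and p-values were adjusted over 16893 genes. A gene was called when its adjusted p was under 0.1 and its change over 1.5-fold, as the methods of the study state. CPM are TMM-normalized, with a prior count of 1 on the log2 scale. The unpaired fit was primary because the study names no pairing. By the numbers in the sample titles, the basal and the treated library of the same number were taken to come from the same mouse. After subtracting the group means these libraries correlated by 0.000509 to 0.254 (median 0.106). Libraries of different mice were not correlated, so these values do not test the pairing. Alternatives were DESeq2 size factors, DESeq2 1.42.0, no filter, filterByExpr, limma 3.58.1 on the deposited log2 values, fits of only the groups compared, a score of sex-linked genes as covariate, the mouse as a block, other thresholds and the omission of each mouse. Halved counts were added after seeing the data.

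The members, pathway lists and markers were chosen with earlier results of these data known. Of each pathway list, the called genes whose mean normalized count exceeded 100 are named, and where there were more than 6, only the 3 that rose most and the 3 that fell most. For a member that changed by more than 1 on the log2 scale, the 3 most alike genes are named. Lists were described by counts and medians, and 1 gene of the lists is not reported here. The procedure was tested on simulated counts. Libraries within a group differed by more than sampling noise (chi-square per degree of freedom of at least 7.42). Sex, litters and sequencing batches were not given in the sources used here. Gene positions, exons, overlaps and promoters are from GRCm39, the build of the authors' alignment. They use a later GENCODE release than the one the authors counted with.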

Additional observations from a re-analysis of the deposited data

Results flagged for a closer look

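In 44 sets of libraries (*Pla2g4d* and the 10 members in 4 groups), 4 held a library that stood apart from the others by Dixon's test at the 95% level, which flags about 1 in 20 sets by chance. In the treated WT set, replicate 1 was highest for *Gpx2*, at 9.46 CPM with the nearest library at 4.74 CPM, and for *Nos2*, at 2.97 CPM with the nearest at 1.297 CPM. In the treated KO set, replicate 8 was highest for *Pla2g4d*, at 59.2 CPM with the nearest at 42.2 CPM, and replicate 4 was lowest for *Nfe2l2*, at 150 CPM with the nearest at 163 CPM.

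The cytokine effect differed between the genotypes by a test of the difference for *Gpx3* (interaction log2 0.96, adjusted p = 0.00251 from edgeR). It also differed for *Hmox1* when the mouse was a block (interaction log2 -0.46, adjusted p = 0.00321), but not in the unpaired fit (adjusted p = 0.515).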

How the results depend on the processing

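Under the other settings tried, the 10 members in 5 comparisons gave 1069 values with an adjusted p, of which 1031 kept their direction and their side of an adjusted p of 0.1, 12 lost the threshold, 16 gained it and 10 changed sign. Those 10 were near 0 and far from the threshold. With single mice left out, the log2 difference between basal genotypes ran from -0.18 to 0.0094 for *Hmox1* (above 0 without WT replicate 2) and from -0.033 to 0.0039 for *Gclm* (without WT replicate 5). Between treated genotypes it ran from -0.051 to 0.023 for *Gclc* (without WT replicate 1 or 3 or KO replicate 7) and from -0.00050 to 0.092 for *Gclm* (below 0 without WT replicate 2). In the interaction it ran from -0.037 to 0.032 for *Nfe2l2* (without WT replicate 1 or KO replicate 4) and from -0.073 to 0.14 for *Nqo1* (below 0 without WT replicate 1 or 5).

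Without the fold threshold the members called were 8 for cytokines in WT, 7 in KO cells, 2 between basal and 1 between treated genotypes, and the pathway genes called were 73, 71, 18, 7 and, for the interaction, 2. DESeq2 called 2 members between basal genotypes. The pathway count was 1 between basal genotypes with no filter, and 1 between treated genotypes at an adjusted p of 0.05. With the mouse as a block, 4 members were called in WT and 2 in KO cells and the pathway interaction count was 2, and the values of *Hmox1*, *Gpx2* and *Nqo1* under this pairing stand in the report. The block changed no other member's side of the threshold. Halved counts gave the same number of called members in each comparison.

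When single mice were omitted, the members called ranged from 2 to 4 in WT, from 1 to 2 between basal genotypes and from 0 to 2 between treated genotypes, and stayed at 2 in KO cells. The pathway genes called ranged from 29 to 33 in WT, from 28 to 31 in KO cells, from 1 to 5 between basal genotypes and from 1 to 7 between treated genotypes, and the interaction stayed at 0 members and 1 pathway gene. WT replicate 1 gave the highest genotype counts when left out. *Sod2* between treated genotypes passed with DESeq2 (adjusted p = 0.0998) and without WT replicate 2 (0.0676) or KO replicate 8 (0.0789), and *Txnrd1* when only those groups were fitted (0.0859). With 5 and 8 mice, differences of *Nos2*, *Gpx2* and *Hmox1* between genotypes rest on few mice, and counts of 0 to 40 limit *Nos2* in basal cells. The causes of these shifts were not tested.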
